A study of Mus musculus with 4 samples.

Results

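The 10 skeletal muscle genes followed here in the embryonic mouse heart were the troponin genes Tnnc2, Tnnt1, Tnnt3, Tnni1 and Tnni2, the calcium buffer gene Pvalb, the myosin genes Myl1 and Myh3, the Z-disc gene Actn3 and the myogenic regulator gene Myog. All non-control probes that carry one of these names were taken, which gave 15 of the 39429 probes and 10 of the 30139 gene names of the array. Of these, 12 probes of 8 genes passed a filter on dim probes, as did 25484 probes in all, and the probes of Myh3 and Myog did not. Tnnc2, Tnnt1, Tnnt3, Tnni2 and Pvalb were higher in the Hdac3 mutant pools than in the control pools on all 4 arrays at every probe, with signs as in the authors' deposited columns, by 1.38-fold to 1.86-fold on average. Tnni1 was lower on all 4 arrays, with a ratio of 0.901. Myl1 was above 0 on all 4 arrays at 1 of its probes, and the other Myl1 probe and Actn3 had signs that differed between arrays.

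The group was chosen by measured values: Tnnc2, Tnnt1 and Pvalb were above 0 in all 4 mutant against wild type columns of the authors' deposited table. Those log2 ratios were 0.24, 1.19, 1.25 and 1.05 for Tnnc2, with array 1 the lowest. They were 0.79, 0.58, 0.64 and 0.39 for the brighter Tnnt1 probe and 0.38, 1.05, 0.92 and 0.69 for the brighter Pvalb probe. The ratios of all 10 genes come from the contrast that chose them, so they are given as a description with no test. The rule had no threshold of size.

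Striated muscle contracts when calcium binds troponin C, which shifts troponin I and troponin T on the thin filament and lets myosin bind actin. Each subunit has cardiac and skeletal forms encoded by separate genes, and the skeletal forms of troponin I and troponin T are further divided into slow and fast fibre types. The embryonic heart is known to express slow skeletal troponin I before the cardiac form replaces it. Parvalbumin binds calcium in fast fibres and speeds relaxation, and myogenin is a transcription factor of skeletal muscle differentiation. Hdac3 encodes a class I histone deacetylase that acts in repressor complexes.

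The data came from 4 arrays on 1 slide, each hybridised with 2 dyes. Every array held RNA pooled from 3 Nkx2.5Cre; Hdac3f/f mutant hearts and RNA pooled from 3 Hdac3f/f control hearts, microdissected at embryonic day 9.5 from a mixed CD1/B6/129 background, so n = 4 pairs of pools, which the labels call independent replicates. The number of hearts per pool is given in the description of replicate 1 only and was taken to hold for the others. The Cre is driven by Nkx2.5, a gene of cardiac progenitors, and the controls are littermates with no stated Cre, so loss of Hdac3 and presence of the Cre cannot be told apart. The descriptions of replicates 2, 3 and 4 name untreated embryonic stem cells, whereas their titles, sources and genotypes name hearts. On the heart check, 10 of 10 heart muscle markers passed the filter, with median percentiles of 99.2 to 99.8 among all probes in the mutant pools and 99.4 to 99.6 in the control pools.

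The sources conflict on direction. The labels place mutant RNA in Cy5 on every array, but the deposited columns followed Cy5 over Cy3 with slopes of 1.03 and 1.01 on arrays 1 and 2 and opposed it with slopes of -0.99 and -1.01 on arrays 3 and 4 (r = 0.932, 0.940, -0.992 and -0.952 over probes with both mean signals above 2000). The signs here follow the deposited columns, with arrays 3 and 4 turned, and every direction below rests on that choice, which was made with the values of Hdac3 and of the members under both signs known. With all arrays as labelled, the means were -0.19 for Tnnc2, 0.0853 for the brighter Tnnt1 probe and -0.0474 for the brighter Pvalb probe. Hdac3 itself had log2 ratios of -0.22, -0.48, -0.45 and -1.10 (mean -0.56 ± 0.38 SD, n = 4, limma adjusted p = 0.594), below 0 on every array, and a mean of 0.21 as labelled. Whether the Hdac3 probe lies in the deleted part of the gene was not determined here. In a single channel, 66.6% to 71.2% of probes were detected well above background. No probe of the whole array passed an adjusted p of 0.05 in limma, 0.0% higher and 0.0% lower of 25484 tested. At an unadjusted p under 0.05 there were 2044 probes, or 8.02%. With so few arrays, precision is limited by their number.

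The sequences of the probes show which part of each transcript was read. The Tnnt3 probes are shown because their values are not independent of each other: they share the 27 bases in capitals.
Tnnt3 probe 1: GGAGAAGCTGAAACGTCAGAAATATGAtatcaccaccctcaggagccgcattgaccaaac
Tnnt3 probe 2: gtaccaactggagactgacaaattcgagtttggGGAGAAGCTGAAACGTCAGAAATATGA
Probe 1 lies on the plus strand at chr7:149698500-149700262 of the mm9 build that the files use, a span of 1763 bases for a 60-base probe, so it crosses at least 1 exon junction, and probe 2 lies at chr7:149698467-149698526. The other genes with a pair of probes share runs of at most 7 bases between them, so their probes read separate stretches.
Stretches of 30 bases from the probes of Tnnc2, Tnnt1 and Tnni2 are shown because each holds the polyadenylation signal letters AATAAA, given in capitals.
Tnnc2: gtgactggaaggAATAAAagttgacaatgt
Tnnt1 probe 2: tctgtaactcaaAATAAAgtgcccccaggc
Tnni2: tggcctcgctccAATAAAggattcacatct
These letters occur in 5 of the 15 member probes and in 12.6% of all 39429 probes. The probes lie in mm9 at chr2:164602661-164602720 on the minus strand for Tnnc2, chr7:4456265-4456324 on the minus strand for Tnnt1 and chr7:149630251-149630310 on the plus strand for Tnni2. Against probes of other genes, the longest exact run was 13 to 15 bases for every member probe except Myh3 probe 2, which shared 24 bases with a probe of Myh15.

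Tnnc2 encodes the troponin C of fast skeletal fibres and had the widest ratio of the group. Its processed signal, after the scanner's background subtraction and dye normalization, was 366, 420, 923 and 875 in the control pools of arrays 1 to 4 and 434, 977, 2230 and 1788 in the mutant pools. The mutant pool was the brighter one on every array, with the smallest step on array 1. The log2 ratios after loess were 0.25, 1.16, 1.15 and 1.02, a mean of 0.90 ± 0.43 (SD, n = 4). Arrays 2 to 4 lie close together and array 1 stands apart from them. On each array both of its channels stood well above background. Without array 1 the mean was 1.11.

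**Figure D1:**
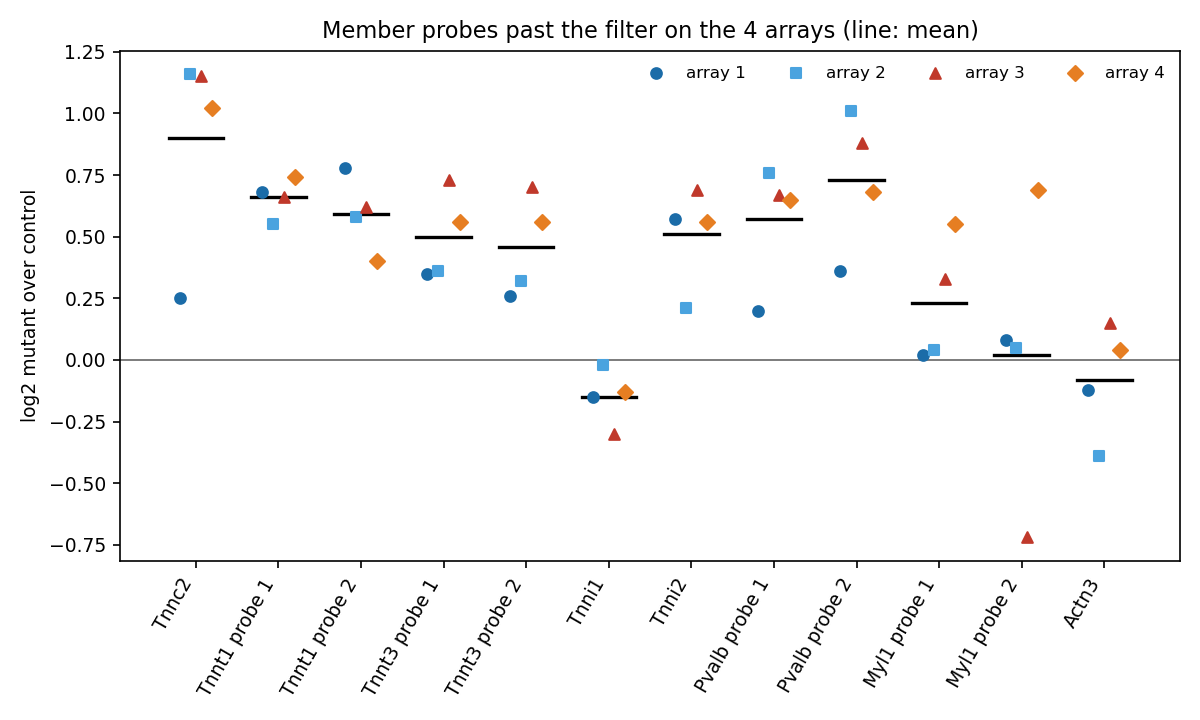
Log2 ratio of mutant over control for the 12 member probes past the filter, 1 point per array and a line at the mean of 4 arrays, with arrays 3 and 4 turned. The Tnnc2, Tnnt1, Tnnt3, Tnni2 and Pvalb probes lie above 0 on every array, and Tnni1 lies below 0 on every array.

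The troponin T genes Tnnt1, of slow fibres, and Tnnt3, of fast fibres, were both higher in the mutant pools. For Tnnt1 probe 2 the processed signal was 10867, 11845, 18763 and 18964 in the control pools and 18804, 18262, 28380 and 23476 in the mutant pools. The ranges of the groups overlap slightly across arrays, and within each array the mutant pool was brighter. The log2 ratios were 0.78, 0.58, 0.62 and 0.40 (mean 0.59 ± 0.16 SD, n = 4). Tnnt1 probe 1 is listed for a different transcript than probe 2 and lies downstream of it at chr7:4456172-4456231. It gave 0.68, 0.55, 0.66 and 0.74 (mean 0.66), and whether both probes read the same RNA was not determined. The Tnnt1 probes share no more than 6 bases, and their ratios were closest on arrays 2 and 3 and farthest apart on array 4.

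Tnnt3 gave log2 ratios of 0.35, 0.36, 0.73 and 0.56 at probe 1 (mean 0.50) and 0.26, 0.32, 0.70 and 0.56 at probe 2 (mean 0.46 ± 0.20 SD, n = 4). Its processed signal at probe 2 was 854, 847, 1004 and 1285 in the control pools and 1032, 1063, 1737 and 1939 in the mutant pools. Arrays 3 and 4 were higher than arrays 1 and 2 at both probes. The means over arrays 1 and 2 alone were 0.351 and 0.292 and those over arrays 3 and 4 alone 0.643 and 0.63. The arrays on which the dyes are turned are therefore the ones with the higher Tnnt3 ratios, and the part of dye in this was not tested.

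The skeletal troponin I genes went in opposite directions. Tnni2, of fast fibres, had a processed signal of 8244, 8436, 10464 and 10185 in the control pools and 12542, 9857, 16392 and 14619 in the mutant pools. Its log2 ratios were 0.57, 0.21, 0.69 and 0.56 (mean 0.51 ± 0.20 SD, n = 4), lowest on array 2. Tnni1, of slow fibres and the embryonic heart, gave -0.15, -0.02, -0.30 and -0.13 (mean -0.15), and array 2 was almost at 0. Its processed signal was 46908, 44077, 62462 and 60433 in the control pools and 40195, 40066, 54360 and 64488 in the mutant pools, so on array 4 the processed signal was higher in the mutant pool while the loess ratio was below 0. With each array centred on its median in place of loess, the Tnni1 mean was 0.018. The Tnni1 probe lay at percentiles 98.1 to 98.6 of all probes in the control pools. Every probe of 4 of the 5 troponin genes was thus above 0 on all 4 arrays, beside 8.71% of all probes tested, and 9.33% of all probes were below 0 on all 4. This contrast chose the genes, so nothing is read from the difference between these shares.

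**Figure D2:**
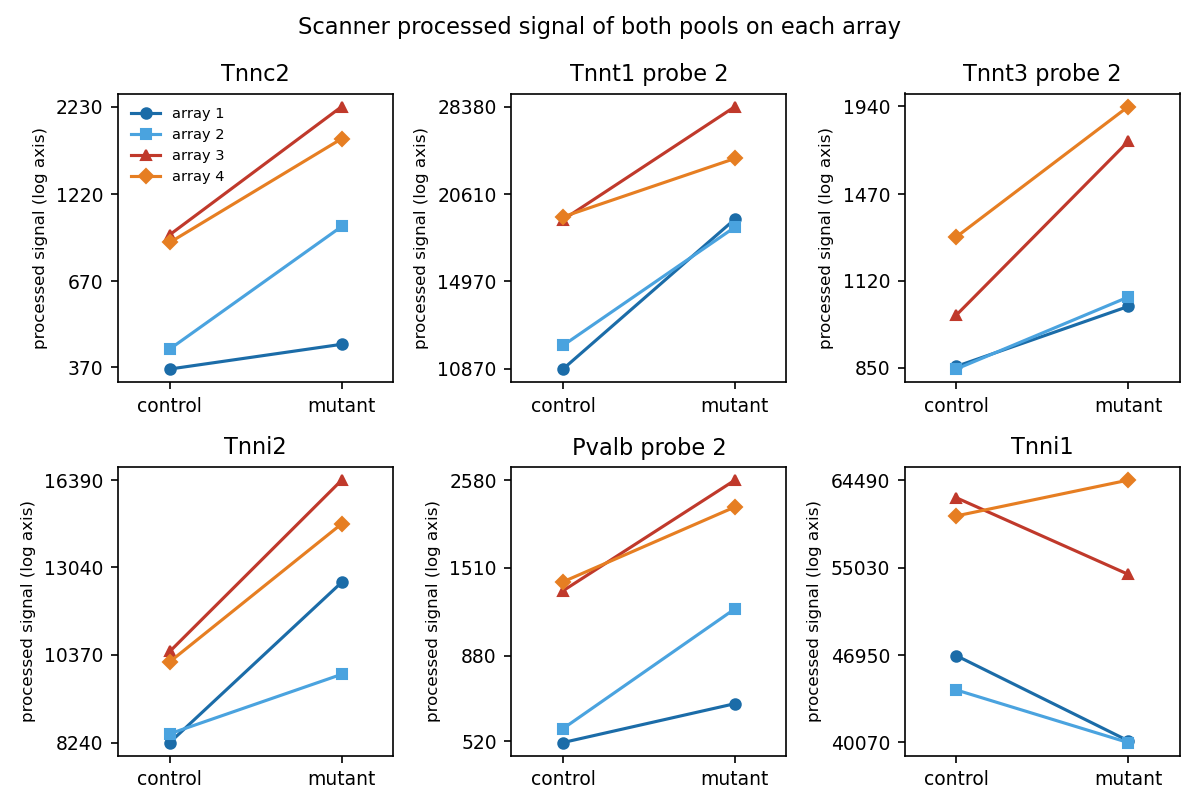
Processed signal on a log axis in the control and mutant pool of each array, 1 line per array, for Tnnc2, Tnnt1 probe 2, Tnnt3 probe 2, Tnni2, Pvalb probe 2 and Tnni1. The first 5 go up from control to mutant on each array, and Tnni1 goes down on arrays 1 to 3 and up on array 4.

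Pvalb encodes parvalbumin. Its brighter probe, probe 2 at chr15:78021951-78022010 on the minus strand, had a processed signal of 516, 562, 1309 and 1383 in the control pools and 655, 1172, 2581 and 2189 in the mutant pools. The log2 ratios were 0.36, 1.01, 0.88 and 0.68 (mean 0.73 ± 0.28 SD, n = 4). Probe 1, at chr15:78021549-78021608, gave 0.20, 0.76, 0.67 and 0.65 (mean 0.57). As with Tnnc2, array 1 was the lowest at both probes. The scanner software's own ratio gave a mean of 0.847 at probe 1, whose signal in the control pools was only 52.3 to 195. Each Pvalb probe cleared the background test on every array for mutant and control alike.

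The myosin genes did not follow the fast troponins in one direction. Myl1 encodes alkali light chains of fast fibres. Probe 1 had log2 ratios of 0.02, 0.04, 0.33 and 0.55 (mean 0.23), above 0 on every array but near 0 on arrays 1 and 2. Its processed signal was 35781, 35735, 41414 and 39556 in the control pools and 33828, 34595, 52905 and 59405 in the mutant pools, so the mutant pool was dimmer on arrays 1 and 2 and brighter on arrays 3 and 4. Probe 2, which spans 4248 bases of mm9 and is listed for a single Myl1 transcript variant, gave 0.08, 0.05, -0.72 and 0.69 (mean 0.02), with opposite signs on arrays 3 and 4. The Myl1 probes are listed for different transcript sets and share no more than 5 bases.

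Myh3 encodes the embryonic myosin heavy chain of skeletal muscle and Myog encodes myogenin. Myh3 probe 1 was not well above background on any array, mutant or control, and probe 2 was above it on 2 arrays in the mutant channel and 3 in the control channel. At probe 2 the log2 ratios were 0.51, 1.34, -0.29 and -0.34, with opposite signs on arrays 1 and 2 and on the turned arrays 3 and 4. As labelled, all 4 were above 0, and no direction is read from this dim probe. For Myog no array had a signal well above background in the mutant or the control pool. The Myog signal was 2.11, 2.04, 8.35 and 9.11 in the control pools and 5.37, 5.09, 4.54 and 4.37 in the mutant pools, averaged over up to 10 spots per array. No ratio is given for Myog or for Myh3 probe 1, since both groups were at background.

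Actn3 encodes the alpha-actinin of fast fibre Z-discs. Its ratios were -0.12, -0.39, 0.15 and 0.04 (mean -0.08), with signs split between arrays 1 and 2 and the turned arrays 3 and 4. As labelled, it was below 0 on all 4 arrays (mean -0.18), so the split rests on the direction choice. The signal was 149, 149, 126 and 160 in the control pools and 130, 93.0, 148 and 160 in the mutant pools, so the groups overlap. Over all 12 probes that passed the filter, 9 were above 0 on all 4 arrays, 1 was below on all 4 and 2 had both signs. A mean above 0 was read at 10 of the 12, beside 49.8% of all probes. The members that passed had a median of 0.50 beside 0.00 over all probes tested, and nothing is read from these shares because the contrast chose the genes. A mean above 0.4 with all 4 arrays above 0 was met by 204 probes, or 0.801% of the probes tested. The own loess ratios and the deposited ratios had the same sign in 48 of 48 pairs of member probe and array, with a largest difference of 0.24.

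The cardiac partners of the same genes were measured on the same arrays and were not used by the rule. Tnnc1, the troponin C of heart and slow fibres, had log2 ratios of -0.17, 0.12, -0.15 and 0.11 (mean -0.02 ± 0.16 SD, n = 4, limma adjusted p = 0.957). Tnnt2, cardiac troponin T, gave 0.20, 0.38, 0.05 and -0.08 (mean 0.13 ± 0.20, limma adjusted p = 0.73). Tnni3, cardiac troponin I, gave 0.03, 0.01, 0.44 and 0.35 (mean 0.21 ± 0.22, limma adjusted p = 0.634). None of the cardiac troponin genes passed the threshold, and Tnnc1 and Tnnt2 changed sign between arrays. Among the other contractile partners, Myl4 had a mean of 0.09 ± 0.60, Myl7 0.08 ± 0.31 and Myh7 -0.02 ± 0.27. The Myl4 ratios were 0.46, 0.75, -0.41 and -0.42, above 0 on arrays 1 and 2 and below 0 on the turned arrays 3 and 4. As labelled, the means were 0.51 for Myl4, 0.16 for Myl7 and 0.19 for Myh7. The Myh6 probes disagreed, at 0.42 ± 0.49 and 0.09 ± 0.53, as did the Actn2 probes at -0.21 ± 0.30 and 0.09 ± 0.21. With the arrays as labelled, the Myh6 means were -0.29 and 0.44. Among the heart muscle markers Nppa, the atrial natriuretic peptide gene, was farthest from 0 (-0.33 ± 0.35, limma adjusted p = 0.61). The median of these markers was 0.05, with 0.21 on arrays 1 and 2 alone and -0.27 on arrays 3 and 4 alone. It was 0.22 with all arrays as labelled, so a median near 0 rests on the direction choice. The difference between skeletal and cardiac forms was not tested, because the skeletal ones were chosen for their values.

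**Figure D3:**
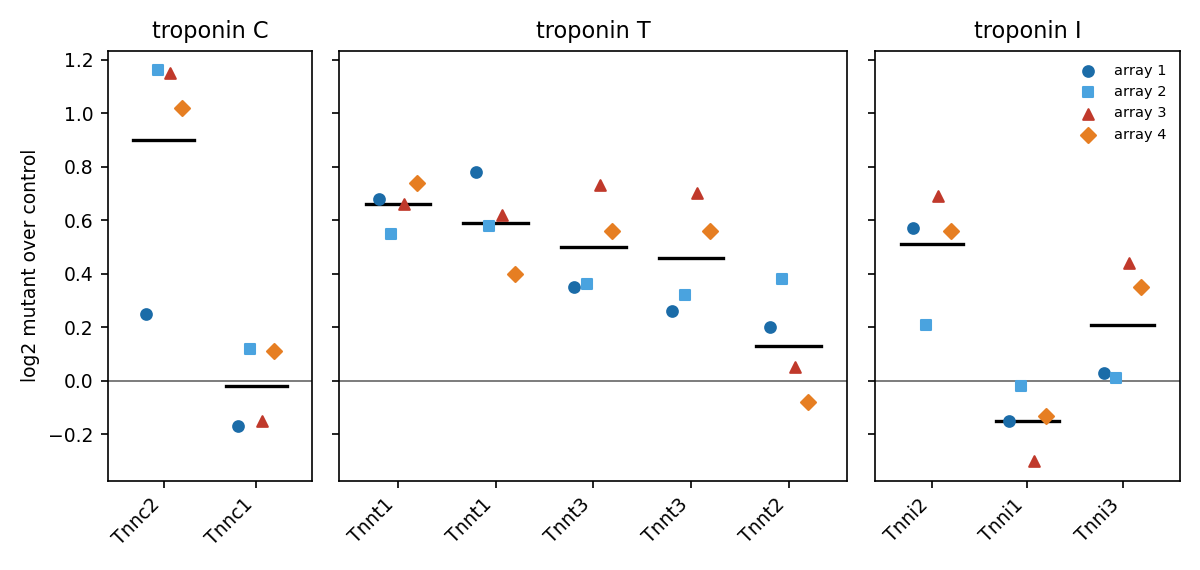
Log2 ratio of mutant over control on each of 4 arrays for the troponin C, T and I genes, skeletal beside cardiac forms, a line at each mean and arrays 3 and 4 turned. Tnnc2, both probes of Tnnt1 and of Tnnt3, Tnni2 and the cardiac Tnni3 lie above 0 on every array, the skeletal Tnni1 lies below 0 on every array, and the cardiac Tnnc1 and Tnnt2 have both signs.

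A wider list of contractile and excitation genes of skeletal muscle was read beyond the members. It also holds genes read above as cardiac partners, such as Myh7 and Actn2. Its median is therefore not that of genes restricted to skeletal muscle. Of 44 genes on the array, 35 passed the filter. Of these, 6 were above 0 on all 4 arrays and 2 below on all 4, beside 9.01% above and 9.03% below among all genes, and 19 had a mean above 0. The median was 0.02, beside 0.00 for all genes, and none passed the adjusted threshold (0.0% of all genes). The genes farthest from 0 were Sln, encoding the calcium pump inhibitor sarcolipin (mean 0.55 ± 0.53), Lmod3, encoding a thin filament nucleator (0.47 ± 0.48), and Myl6b, encoding a myosin light chain (0.46 ± 0.12, limma adjusted p = 0.555). Sln was carried by arrays 3 and 4, at 0.69 and 1.25, whereas Myl6b was between 0.34 and 0.62 on every array. The fast heavy chains Myh1, Myh2 and Myh4 and the genes Mybpc2, Cacng1 and Ampd1 were not well above background on any array.

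Among 24 regulators of fibre type, 23 passed the filter, with a median of 0.04. On all 4 arrays, 4 were above 0 and 1 below, beside 9.01% and 9.03% of all genes. Nfatc1, a calcium-responsive transcription factor, had a mean of 0.32 ± 0.12 (limma adjusted p = 0.594), and its other probe 0.45. Nfatc2 had -0.23 ± 0.15 and Twist1, a repressor of myogenic differentiation, 0.26 ± 0.33. Prox1, a homeobox factor of striated muscle, had a mean of -0.05 ± 0.20. None of them passed the threshold in limma.

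Markers of other cells that such a dissection could hold were read beside the members. Of 26 myogenic and somite markers, 12 passed the filter, with a median of 0.01. Among them, 0 were above 0 and 0 below 0 on all 4 arrays, beside 9.01% and 9.03% of all genes. The genes farthest from 0 were Meox1 (-0.20 ± 0.37), Six4 (-0.12 ± 0.49) and Tcf15 (0.11 ± 0.30). Myf5, Chrna1, Chrnd, Meox2, Pax1 and Dmrt2 were not well above background on any array, and Myod1 was above it on 2 arrays in each channel. The myogenic regulators Myf5, Myod1 and Myog were thus near background in both groups. The summed signal of the list ran from 9632 to 11403 in the mutant pools and from 6004 to 18411 in the control pools, so these overlap. Eya1, the brightest listed gene at percentiles 92.2 to 95.1, weighs most in this sum. Its ratios were 0.72, 0.48, -0.67 and -0.59, with a mean of 0.62 as labelled, so the sum is not read as an amount of somite muscle.

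Pharyngeal muscle progenitor markers gave 7 of 8 genes past the filter and a median of 0.13. On all 4 arrays, 3 were above 0 and 2 below, beside 9.01% and 9.03% of all genes. Tbx1, a transcription factor of the pharyngeal mesoderm and second heart field, had ratios of 0.16, 1.16, 0.78 and 0.55 (mean 0.66 ± 0.42, limma adjusted p = 0.584), and Lhx2, a LIM homeobox gene of head muscle progenitors, 0.40 ± 0.14. Tcf21 read -0.39 ± 0.27, and Msc was not well above background on any array. The summed signal was 1440 to 2920 in the mutant pools and 1402 to 2965 in the control pools. The part of such cells in the members' ratios was not tested, and fewer cells of a type and less RNA per cell cannot be told apart in these pools.

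Primitive erythroid markers were lower on average: 10 of 10 had a mean below 0, 5 were below 0 on all 4 arrays, beside 9.03% of all genes, and the median was -0.35, beside a median of 0.03 with the arrays as labelled. The array medians were -0.05, -0.61, -0.32 and -0.38. Their summed signal was 236656 to 309843 in the mutant pools and 320912 to 411140 in the control pools. On array 1 the bright globin genes Hba-x, Hbb-y and Hbb-bh1 were nevertheless above 0 after loess, at 0.22, 0.16 and 0.20. The summed signal and the loess ratios of these globin genes thus differ in direction on that array. The genes farthest from 0 were Epb42, of the red cell membrane skeleton (-0.57 ± 0.23, limma adjusted p = 0.555), the embryonic globin gene Hbb-bh1 (-0.49 ± 0.50) and Rhag (-0.45 ± 0.22). None passed the threshold. Array 1, lowest for Tnnc2, Tnnt3 and Pvalb, was the array on which these markers were nearest to 0. Tnnt1 probe 2 was instead highest on array 1 (0.78). Tnni2 and Tnnt1 probe 1 were lowest on array 2 (0.21 and 0.55), where the median of these markers was -0.61. The part of the erythroid markers in the members' ratios was not tested. Liver and foregut endoderm markers had a median of 0.18, with 3 of 7 above 0 on all 4 arrays, beside 9.01% of all genes. Afp was at 1.71, 0.68, 0.05 and 0.21 (mean 0.66 ± 0.75). Krt18 had a mean of 0.28 ± 0.33 and Ttr 0.26 ± 0.15. Neural markers had a median of 0.12, with 2 of 5 above 0 on all 4 arrays, and smooth muscle markers 0.04, with 0 of 5. The share of all genes is again 9.01%. The genes farthest from 0 were Sox1 (0.38 ± 0.34), Nkx2-2 (0.27 ± 0.34) and Tubb3 (-0.18 ± 0.49) among the neural markers, and Lmod1 (0.10 ± 0.36), Smtn (0.06 ± 0.19) and Acta2 (0.04 ± 0.22) among the smooth muscle markers. None of these passed the threshold in limma.

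**Figure D4:**
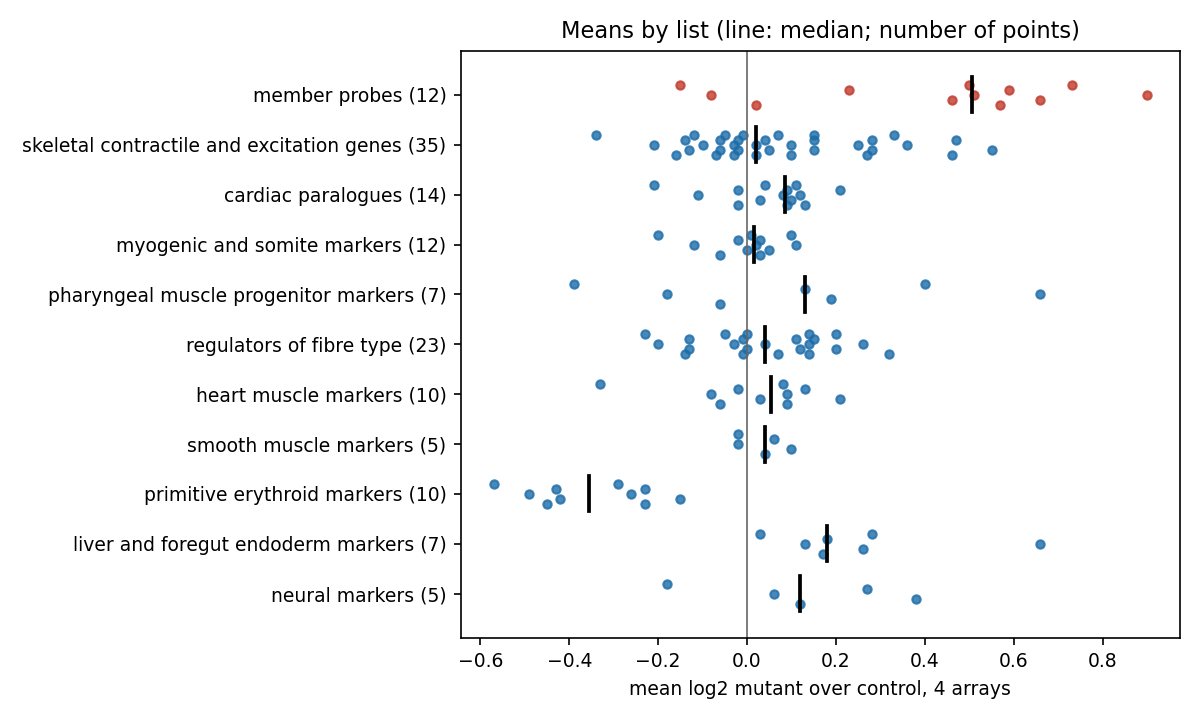
Mean log2 ratio of mutant over control over 4 arrays, 1 point per member probe (top line) or per listed gene, with the number of points in brackets, a line at each median and arrays 3 and 4 turned. The skeletal contractile genes lie on both sides of 0 with a median of 0.02, and 10 of 10 primitive erythroid markers lie below 0.

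The genes whose 4 ratios were most like those of the leading members were sought among 15775 other genes with a RefSeq symbol by the root mean square difference over the 4 arrays, taking for each gene whichever of its probes was closest. Nearest to Tnnc2 were Spink1 (0.21), Pvalb (0.24) and Lmnb1 (0.26). Pvalb and Tnnc2 were chosen together for being above 0 on all 4 arrays, so their closeness follows in part from the choice and shows nothing further. Nearest to Pvalb were Lmnb1 (0.14), Tbx1 (0.15) and Kcna5 (0.17), with Tnnc2 at rank 8. These profiles share a low value on array 1, which was -0.07 for Spink1, 0.37 for Lmnb1 and 0.16 for Tbx1. Among the genes nearest to Tnnt1 were Apoc2 (0.13) and Nfatc1 (0.17, at the dimmer of its probes), which were instead lowest on array 4, at 0.26 and 0.25. For Tnnt1, Tnni2 was at rank 9, Tnnt3 at rank 24 and Pvalb at rank 88, followed by Myl1 at rank 1869, Tnnc2 at 4787, Actn3 at 12486 and Tnni1 at 13557. From Tnnc2, Tnnt1 was at rank 37, Tnnt3 at 53 and Tnni2 at 129. From Pvalb, Tnnt1 was at rank 24, Tnnt3 at 38 and Tnni2 at 111. Tnni1 and Actn3 were far down each order, at ranks 13688 and 12212 from Tnnc2 and 13561 and 12726 from Pvalb. A rank thus depended on the gene started from, and the members did not share one profile over the arrays. These likenesses rest on 4 arrays and on members chosen for their values, and are a description.

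Some of the troponin members lie beside other troponin genes. In the RefSeq gene order of assembly GRCm38.p6, Tnni2, Lsp1 and Tnnt3 follow each other on chromosome 7. Lsp1, which encodes an actin-binding protein of leukocytes, was also above 0 on every array at 0.18, 0.06, 0.57 and 0.48 (mean 0.32 ± 0.24, limma adjusted p = 0.594). Beyond the trio, Syt8 had a mean of -0.03 and Mrpl23 0.03. On chromosome 1, Tnni1, below 0 on all 4 arrays, is followed by Lad1 (0.18 ± 0.15) and Tnnt2 (0.13 ± 0.20). Both Lad1 and Tnnt2 were above 0 on 3 arrays, so this pair of troponin genes did not share a direction. Tnnt1 lies beside Tnni3 (0.21 ± 0.22) and, one gene further, Dnaaf3 (0.38 ± 0.29, above 0 on all 4 arrays), whereas Ppp1r12c on the other side had 0.05. Tnnc2 lies between Ube2c (0.04) and Snx21 (0.07), and Pvalb between Ift27 (0.06) and Ncf4 (-0.19 ± 0.55). The neighbours of Tnnc2 and Pvalb were thus near 0 or split in sign.

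Upstream sequences from the RefSeq promoter table of GRCm38.p6 matched 7 of the 10 genes, with 9 entries. The 250 bases before the start of Tnnc2, Tnnt1 and Pvalb are shown because these 3 genes chose the group. Capitals mark the E-box CANNTG, the site of myogenic bHLH factors, in Tnnc2 and Tnnt1, and the MEF2 motif in Pvalb.
Tnnc2, chr2:164779735-164779984, minus strand: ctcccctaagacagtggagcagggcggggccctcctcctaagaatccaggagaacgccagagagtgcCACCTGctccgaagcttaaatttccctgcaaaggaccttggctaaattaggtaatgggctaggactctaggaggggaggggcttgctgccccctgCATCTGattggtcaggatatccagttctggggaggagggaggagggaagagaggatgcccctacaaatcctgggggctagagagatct
Tnnt1, chr7:4515976-4516225, minus strand: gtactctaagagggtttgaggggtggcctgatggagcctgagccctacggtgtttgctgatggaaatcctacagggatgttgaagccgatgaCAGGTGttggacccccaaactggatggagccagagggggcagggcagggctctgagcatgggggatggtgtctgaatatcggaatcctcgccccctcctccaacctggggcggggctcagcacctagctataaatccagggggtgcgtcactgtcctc
Pvalb, chr15:78206401-78206650, minus strand: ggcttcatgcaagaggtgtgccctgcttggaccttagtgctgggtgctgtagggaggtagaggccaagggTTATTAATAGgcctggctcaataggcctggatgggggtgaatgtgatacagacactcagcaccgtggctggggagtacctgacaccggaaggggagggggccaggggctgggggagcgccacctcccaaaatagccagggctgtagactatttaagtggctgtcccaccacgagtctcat
Searched on both strands, with the palindromic E-box counted once, Tnnc2 held 2 E-boxes, Tnnt1 held 1 and this Pvalb window held 0. An E-box was found in 66.2% of 32841 promoter windows of the same length. The MEF2 motif, which is bound by MADS-box factors of muscle, was in the Pvalb window and in 2.92% of all windows. The second Pvalb start had 1 E-box. The CATTCC motif of TEAD factors was in the Myl1 window and in 12.6% of all windows, and the CArG box of serum response factor was in none of the 9 member windows and in 1.47% of all. The matches in capitals do not overlap each other.

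**Figure D5:**
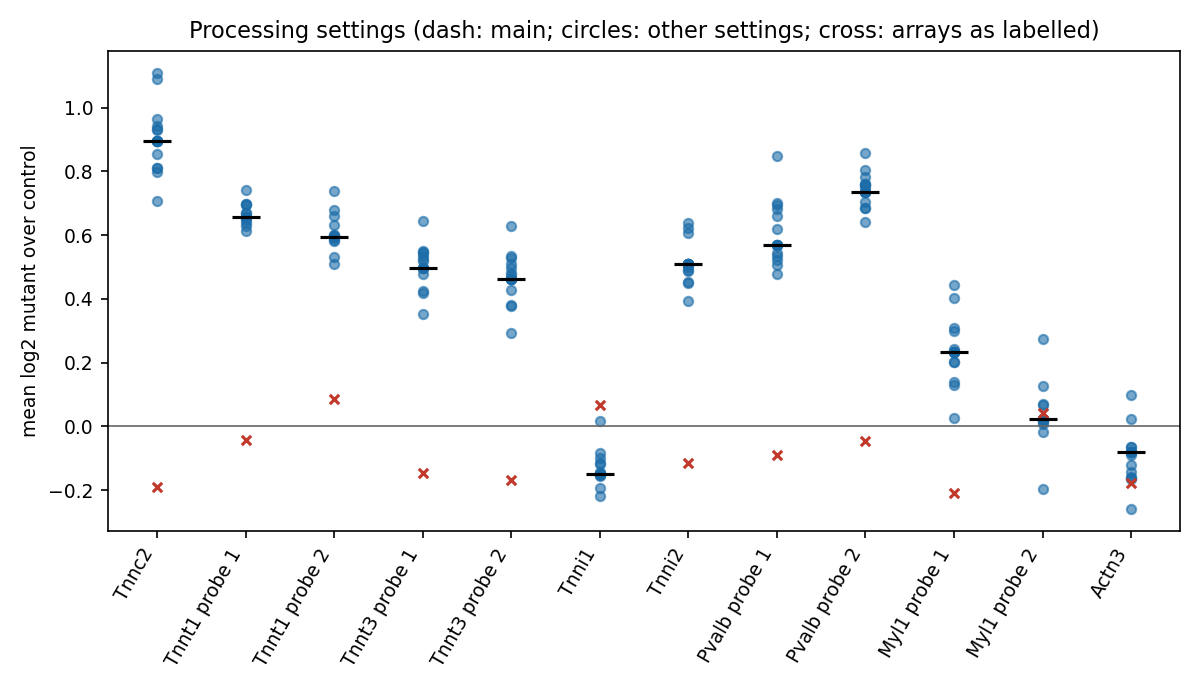
Mean log2 ratio of mutant over control of each member probe past the filter, with a dash for the values reported here, circles for other processing settings and a cross for the arrays as labelled. The Tnnc2, Tnnt1, Tnnt3, Tnni2 and Pvalb probes stay above 0 under every setting that turns arrays 3 and 4, and their means lie between -0.19 and 0.0853 with the arrays as labelled.

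The direction choice weighs most on the members. For Tnnc2 the settings with arrays 3 and 4 turned gave means of 0.706 to 1.11, for the brighter Tnnt1 probe 0.509 to 0.739, for Tnni2 0.393 to 0.639 and for the brighter Pvalb probe 0.642 to 0.857. Arrays 1 and 2, whose direction is the same under both readings, gave means above 0 at every probe of Tnnc2, Tnnt1, Tnnt3, Tnni2 and Pvalb. The lowest was 0.292, at Tnnt3 probe 2. Tnnc2, Tnnt1 and Pvalb were chosen for being above 0 on these arrays too, so nothing about the direction is read from this. Myl1 probe 1 ranged from 0.0261 on arrays 1 and 2 to 0.443 on arrays 3 and 4. Myl1 probe 2 read -0.197 without array 4 and 0.273 without array 3. Actn3 ran from -0.259 on arrays 1 and 2 to 0.0976 on arrays 3 and 4.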

How the data were processed

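Expression was measured on 4 arrays of 44397 spots, each with a mutant pool and a control pool. Per the file headers, the deposited scanner files hold Cy3 and Cy5 spot and background intensity from Agilent Feature Extraction 11.5.1.1, and also processed intensity and its ratio as log10 of Cy5 over Cy3. A different version, 8.5.1.1, stands in the submitters' processing notes. The authors deposited a table of log2 ratios, with column medians of -0.029, -0.017, 0.017 and 0.023. Its scale and direction follow from its slopes against the scanner ratios, while its centring and normalization remain unknown here.

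In R 4.3.3 with limma 3.58.1, background was corrected with normexp (offset 50) and loess was run within arrays, giving weight 0 to the 1377 control spots. Outlier spots (230 to 327 per array) were dropped, and spots of a probe averaged. A probe was kept if all 4 mutant or all 4 control signals stood well above background. The test against 0 used lmFit and eBayes, Benjamini-Hochberg adjustment and a threshold of 0.05, after the steps were tested on simulated data. The offset draws ratios of dim probes towards 0. A listed gene is read by its brightest probe, and 27508 probes were named by accession and 404 by synonym.

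The members and lists were chosen with earlier results of these data known. Named were every member, the cardiac partners, Hdac3, the 3 genes of each list farthest from 0 and any gene past the threshold. By the same rule the 3 genes nearest to Tnnc2, Tnnt1 and Pvalb were named. Gene neighbours, genes not well above background, Prox1, Eya1, Hba-x and Hbb-y were named besides. A gene that this rule picked is not reported here. The alternatives were the deposited and scanner ratios, orientation, centring, offset, filters, dye term, array weights, a fit without the pairing and leaving out each array. Fits of arrays 1 and 2 and of arrays 3 and 4 alone were chosen after seeing the data.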

Additional observations from a re-analysis of the deposited data

Results flagged for a closer look

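In 59 groups of 4 arrays examined, the gap between the farthest array and the nearest other one, as a share of the whole range, was above Dixon's critical value in 3, which is about what chance gives, 1 group in 20. For Tnnc2 the share was 0.849, with array 1 at 0.25 below the other arrays, which describes the spread of the values that chose the gene and is not evidence about them. For Lmod1, a smooth muscle leiomodin gene, it was 0.912, with array 1 at -0.44. For Rhag, an erythroid membrane gene, it was 0.858, with array 2 at -0.78.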

How the results depend on the processing

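The number of probes called was 0 higher and 0 lower. With all arrays as labelled, 89 were called higher and 6 lower, and 4 of 13 member probes had a mean above 0, beside 10 of 12 with arrays 3 and 4 turned. By the brightest probe per gene, 6 of 8 member probes had a mean above 0, which leaves 1 probe for each gene. Leaving out each array in turn gave 0 to 10 probes called higher, with 10 without array 1, and 9 to 11 member probes above 0. Arrays 3 and 4 only gave 4 called higher. The cause of these changes was not tested. In the fit with no replicate block, which takes both channels as unpaired, 0 probes were called, with 387 higher and 404 lower at an unadjusted p under 0.05. Median centring in place of loess gave 786 and 394. With arrays as labelled, Tnni1 read 0.0671 and Tnni2 -0.115. Signal over background limits Myh3 and Myog, for which no direction is given.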
